A study of Mus musculus with 9 samples.

Results

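Vitamin A handling in the proximal epididymis was examined through 9 genes of retinoid uptake, binding and oxidation, namely Stra6, Rbp4, Crabp1, Crabp2, Aldh1a1, Aldh1a2, Aldh1a3, Cyp26b1 and Rarb. These were picked by gene symbol out of 24346 genes, and they were chosen by name with earlier results of the same libraries known. Their own levels and changes are therefore given as a description, with no p-value. Which of them passed the threshold of the fit over all genes is counted below, and nothing is read from those counts. RNA from the initial segment and caput epididymis (IS-caput, dissected together) of 14-week-old male mice was sequenced in 3 libraries each of Nicol-/-, Ros1-/- and Nicol+/- mice. The labels spell the gene Nicole, and it appears in the table as Gm1673. NICOL is a secreted protein and ROS1 a receptor tyrosine kinase of the IS epithelium, and the comparison asks what the IS-caput loses or gains when either is missing.

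Nicol-/- mice carried a CRISPR/Cas9 deletion that removes the whole Nicol coding sequence, made on a B6D2F1 background. Ros1-/- mice came from an earlier knockout line and no source used here gives its background. The Nicol+/- controls carried one deleted Nicol allele, and no wild-type and no Ros1+/- library was analysed. Both knockouts were therefore set against the same 3 Nicol+/- libraries. The design text speaks of quadruplicates, and 3 libraries a group were analysed here. Nothing in the labels says whether a library came from one animal, so errors and p-values cover only how far the libraries vary, which may be partly technical.

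Retinol travels in blood bound to the carrier RBP4, and STRA6 is the membrane receptor that takes retinol from it into cells. Inside the cell retinol is oxidised to retinal, which the ALDH1A enzymes oxidise irreversibly to retinoic acid. CRABP1 and CRABP2 bind retinoic acid in the cytosol, CYP26 enzymes such as CYP26B1 break it down, and receptors such as RARB switch target genes when they bind it. The epididymis is a known site of retinoic acid production, and the epididymal fluid contains lipocalins that bind retinoids.

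In Nicol-/- IS-caput, Stra6 was 3.20 times as high as in Nicol+/- IS-caput (23.7 ± 5.44 against 7.39 ± 1.76 RPKM; SD, n = 3 each). Aldh1a1, by far the most abundant of the 9 genes, was lower in both knockouts (430 ± 101.2 RPKM in Nicol-/- and 456 ± 7.50 RPKM in Ros1-/-, against 671 ± 109 RPKM in Nicol+/-). The Rbp4 levels of all 3 Nicol-/- libraries lay above those of all others. Aldh1a2, Cyp26b1, Rarb and Crabp2 had overlapping libraries in every comparison. RPKM, the unit throughout, counts reads relative to exon length and to the depth of the library, so levels of different genes can be set side by side.

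**Figure D1:**
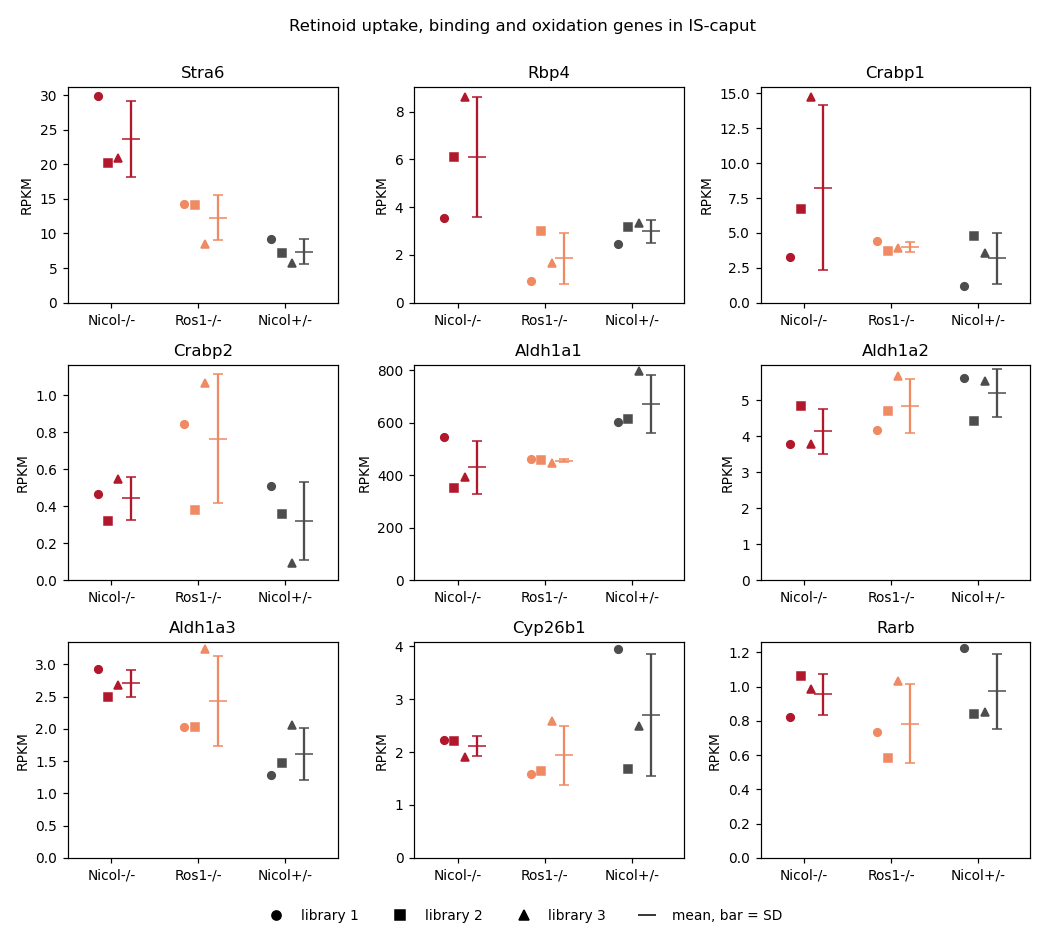
RPKM of the 9 genes in each library of Nicol-/-, Ros1-/- and Nicol+/- IS-caput; symbols are libraries, and the dash and bar are the mean and SD (n = 3). All 3 Nicol-/- libraries lie above all others for Stra6 and Rbp4, and all 6 knockout libraries lie below the Nicol+/- libraries for Aldh1a1.

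The gene targeted in Nicol-/- mice, Gm1673, was listed at 0 in all 3 Nicol-/- libraries. It had 16.6 to 19.6 RPKM in Ros1-/- libraries and 6.05 to 9.09 RPKM in Nicol+/- libraries. Gm1673 was thus higher in Ros1-/- than in Nicol+/- (log2 difference 1.07, adjusted p = 0.000798 by limma). The Nicol+/- mice carried a deleted Nicol allele, and the part of gene dose in this difference was not tested. The gene Ros1 had 8.06 to 9.32 RPKM in Ros1-/- libraries and 40.7 to 48.0 RPKM in Nicol+/- libraries, so transcript of the disrupted gene was still counted. In Nicol-/- libraries Ros1 had 16.8 to 24.7 RPKM, which was lower than in Nicol+/- (log2 difference -1.09, adjusted p = 0.000666 by limma). From RT-PCR, another assay than the RPKM used here, the study describes Ros1 expression in Nicol-/- mice as not compromised. The labelled tissue carried its principal cell marker Gpx5 at 23430 to 36736 RPKM in all 9 libraries. Of 9 principal cell markers, however, 6 (Adam28, Lcn9, Lcn8, Ovch2, Crisp1 and Cldn10) were lower in both knockouts by limma, where 11.9% and 13.3% of all genes were lower. The study reports ADAM28 and OVCH2 proteins, induced as the IS differentiates, as reduced in Nicol-/- IS-caput. The fall of these genes was thus known beforehand, and the count does not measure a loss of principal cells in general. The other 3 (Gpx5, Lcn5 and Spink8) did not pass in either knockout. Lcn5 had higher means in both. Spink8 had 3586 to 6003 RPKM in Nicol-/- libraries, 3411 to 6839 RPKM in Ros1-/- libraries and 1341 to 3140 RPKM in Nicol+/- libraries. The median log2 difference of the 9 was -3.80 in Nicol-/- and -4.22 in Ros1-/-. Adam28 had 0.0290 to 0.0830 RPKM in Nicol-/- libraries and 0.0515 to 0.135 RPKM in Ros1-/- libraries, against 702 to 1158 RPKM in Nicol+/- libraries. The part of these marker changes in the level of the 9 retinoid genes was not tested. Estimated depth was 8189629 to 16595568 reads a library, which put 212 to 901 reads on Stra6 and 5867 to 22341 on Aldh1a1. Fewer lay on Aldh1a3 (35 to 137, with 35 in Nicol+/- library 1), Crabp1 (6 to 139), Rarb (22 to 42) and Crabp2 (1 to 9). Rbp4 had 10 to 40 reads outside Nicol-/- library 3. IS-caput is a whole tissue, and fewer cells of a type and less RNA per cell cannot be told apart in any value that follows.

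Retinoic acid receptors bind, together with RXR, direct repeats of a short motif, and the Rarb promoter is the textbook example of such an element. RefSeq (GRCm38.p6) promoter windows, running from 250 bases before to 50 bases after a transcription start, were at hand for 7 of the 9 genes in 12 entries, and none for Crabp2 and Aldh1a3. Gene coordinates given here are of the same build. The motif AGGTCA was searched on both strands, and so were the variants AGTTCA (as in Rarb), GGGTCA (as in Aldh1a1) and GGTTCA (as in Rarb). At least 1 of them occurred in 4 of the 12 entries, and in 43.7% of all 32851 windows. Pairs of them in direct repeat with 1, 2 or 5 bases between occurred in 0.588% of all windows and, among the 9 genes, only in that of Rarb. Since the variants searched are those of Rarb and Aldh1a1, matches in these genes were set by the choice of motifs. The shares of all windows therefore say nothing about them. A match is a run of letters and not a measured binding site. The windows of Stra6 (the only one of its 4 entries with a match), of Aldh1a1 (the second of its starts), of its neighbour Aldh1a7 and of Rarb are printed 5′ to 3′ along the transcript, since Stra6 and Aldh1a1 had the highest levels of the 9 genes, Aldh1a7 shares the Aldh1a1 promoter letters, and Rarb holds the repeat. Capitals mark the motif matches on either strand, and no matches overlapped.
Stra6 (chr9:58133825-58134124, plus strand): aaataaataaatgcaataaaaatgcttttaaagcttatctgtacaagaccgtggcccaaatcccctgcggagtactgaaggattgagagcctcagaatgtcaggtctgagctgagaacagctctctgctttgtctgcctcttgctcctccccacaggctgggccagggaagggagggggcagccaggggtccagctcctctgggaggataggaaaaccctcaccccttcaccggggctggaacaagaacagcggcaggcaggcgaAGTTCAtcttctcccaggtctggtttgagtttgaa
Aldh1a1 (chr19:20601718-20602017, plus strand): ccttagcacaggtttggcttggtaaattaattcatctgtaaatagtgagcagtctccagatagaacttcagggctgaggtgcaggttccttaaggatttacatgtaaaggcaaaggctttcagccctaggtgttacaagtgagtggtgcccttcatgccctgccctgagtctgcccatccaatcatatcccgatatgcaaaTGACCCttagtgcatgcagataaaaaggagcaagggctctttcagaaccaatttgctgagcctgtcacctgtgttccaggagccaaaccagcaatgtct
Aldh1a7 (chr19:20727507-20727806, minus strand): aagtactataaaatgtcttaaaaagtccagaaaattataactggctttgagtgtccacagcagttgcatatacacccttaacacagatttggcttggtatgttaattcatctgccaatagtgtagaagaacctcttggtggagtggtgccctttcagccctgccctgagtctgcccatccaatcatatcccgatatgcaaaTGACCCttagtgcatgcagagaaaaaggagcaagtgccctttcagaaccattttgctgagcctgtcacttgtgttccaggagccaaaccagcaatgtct
Rarb (chr14:16575427-16575726, minus strand): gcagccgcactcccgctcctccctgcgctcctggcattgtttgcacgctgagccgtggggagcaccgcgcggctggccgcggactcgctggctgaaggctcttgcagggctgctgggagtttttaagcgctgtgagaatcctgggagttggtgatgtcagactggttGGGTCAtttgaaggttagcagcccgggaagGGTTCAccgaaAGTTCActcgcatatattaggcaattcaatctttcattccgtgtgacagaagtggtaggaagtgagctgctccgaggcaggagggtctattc

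In Rarb the repeat read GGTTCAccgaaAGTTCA and began 53 bases before the start, with 5 bases between the motifs, a spacing found in 0.0974% of all windows. Aldh1a1 and Aldh1a7 each held the motif GGGTCA on the opposite strand (TGACCC as printed), at 49 bases before the start. Over the last 140 bases, a length picked after the windows had been seen, the Aldh1a1 and Aldh1a7 windows were 96.4% identical.

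Of the 9 genes, the retinol receptor gene had the largest log2 difference in Nicol-/- against Nicol+/-. Stra6 (chr9:58063793-58154004) had 29.9, 20.1 and 20.9 RPKM in Nicol-/- libraries, 14.2, 14.2 and 8.48 RPKM in Ros1-/- libraries and 9.26, 7.13 and 5.76 RPKM in Nicol+/- libraries. The Nicol-/- libraries stood above all others, while the lowest Ros1-/- library, library 3, lay below the highest Nicol+/- library. That library also stood apart in the ribosomal RNA precursor Rn45s, which had 1922 to 2579 RPKM in Nicol-/- libraries, 4700, 6356 and 17294 RPKM in Ros1-/- libraries (17294 in library 3) and 592 to 1185 RPKM in Nicol+/- libraries, and its part in the Stra6 level was not tested. On the log2(RPKM + 1) scale used for every difference here, Stra6 differed by 1.56 (SE 0.23) in Nicol-/- against Nicol+/-, by 0.65 (SE 0.23) in Ros1-/- against Nicol+/-, and by -0.90 (SE 0.23) in Ros1-/- against Nicol-/-. The Stra6 gene overlaps Ccdc33 on the opposite strand, but none of its 4513 words of read length occurs in a transcript of another gene.

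The 3 genes whose profile over the 9 libraries was most like that of Stra6, by the root mean square difference of centred log2 values, were Snhg11 (0.271), Kcnh2 (0.274) and Ripk3 (0.290), where the SD of Stra6 itself was 0.736. Kcnh2, a potassium channel gene, had 13.6 to 14.6 RPKM in Nicol-/- libraries, 6.40 to 12.9 RPKM in Ros1-/- libraries and 4.09 to 6.78 RPKM in Nicol+/- libraries. Like Stra6, Kcnh2 was lowest among the Ros1-/- libraries in library 3, but it was picked for its likeness, so the match adds no support of its own.

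The carrier gene Rbp4 (chr19:38116620-38125321) followed another order, with Ros1-/- lowest. Its levels were 3.57, 6.10 and 8.63 RPKM in Nicol-/- libraries, 0.903, 3.01 and 1.66 RPKM in Ros1-/- libraries and 2.44, 3.15 and 3.35 RPKM in Nicol+/- libraries. All 3 Nicol-/- libraries were above all 6 others, whereas Ros1-/- and Nicol+/- libraries overlapped. The log2 difference was 0.78 (SE 0.31) in Nicol-/- and -0.54 (SE 0.31) in Ros1-/-, both against Nicol+/-, and -1.31 (SE 0.31) in Ros1-/- against Nicol-/-. The profiles nearest to that of Rbp4 were those of Fxyd2 (0.270), Plat (0.291) and Slc38a3 (0.329), with an SD of Rbp4 itself of 0.694. Plat, which encodes tissue plasminogen activator, had 9.88 to 22.03 RPKM in Nicol-/- libraries, 4.81 to 5.47 RPKM in Ros1-/- libraries and 7.67 to 11.1 RPKM in Nicol+/- libraries.

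Rbp4 is also made by fat cells, and the dissected tissue carried varying amounts of adipocyte transcripts. The summed level of 7 adipocyte genes was 1.12 to 54.9 RPKM in Nicol-/- libraries, 0.56 to 2.67 RPKM in Ros1-/- libraries and 1.18 to 12.8 RPKM in Nicol+/- libraries. Of the 7 genes, 2 passed the filter on low values and neither passed the test in any comparison. In Nicol-/- library 3, where Rbp4 was highest (8.63 RPKM), the adipocyte sum was lowest of that group (1.12 RPKM) and the adipokine gene Adipoq was listed at 0. In Nicol-/- library 2, with the highest adipocyte sum (54.9 RPKM), Rbp4 was at 6.10 RPKM. In Ros1-/- library 1 both Rbp4 (0.903 RPKM) and the adipocyte sum (0.56 RPKM) were the lowest of all 9 libraries. The part of fat cells in the Rbp4 level was not tested.

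Of the cytosolic retinoic acid binding proteins, Crabp1 varied widely between Nicol-/- libraries. Crabp1 (chr9:54764748-54773110) had 3.25, 6.69 and 14.8 RPKM in Nicol-/- libraries, 4.40, 3.67 and 3.89 RPKM in Ros1-/- libraries and 1.19, 4.77 and 3.53 RPKM in Nicol+/- libraries. The groups overlapped, and the Nicol-/- mean of 8.23 RPKM rested on library 3. The log2 difference was 1.06 (SE 0.46) in Nicol-/- and 0.37 (SE 0.46) in Ros1-/-, both against Nicol+/-. Crabp2 (chr3:87948693-87953372), which hands retinoic acid to the receptors, was near the limit of detection with 0.464, 0.319 and 0.546 RPKM in Nicol-/- libraries, 0.848, 0.381 and 1.07 RPKM in Ros1-/- libraries and 0.510, 0.356 and 0.0946 RPKM in Nicol+/- libraries. Crabp2 failed the filter, and a difference in it was not detectable at this depth.

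The profile most like that of Crabp1 was that of Foxj1 (0.224), followed by 2410004P03Rik (0.277) and Efcab10 (0.288), against an SD of Crabp1 itself of 0.758. Foxj1, a transcription factor gene of ciliated cells, which line the efferent ducts next to the IS, had 11.03, 14.3 and 31.7 RPKM in Nicol-/- libraries, 9.86, 7.27 and 9.70 RPKM in Ros1-/- libraries and 3.70, 7.99 and 7.43 RPKM in Nicol+/- libraries. The library highest in Crabp1 was highest in Foxj1, and the library lowest in Crabp1 was lowest in Foxj1. Foxj1 was picked for this likeness, so the match adds no support of its own. All 5 ciliated cell genes together, Foxj1 among them, summed to 19.9, 23.4 and 48.4 RPKM in Nicol-/- libraries, 17.8, 14.2 and 18.8 RPKM in Ros1-/- libraries and 8.56, 14.1 and 12.5 RPKM in Nicol+/- libraries. Of the 3 that passed the filter, Foxj1 (log2 difference 1.36, SE 0.36, adjusted p = 0.0297), Tekt1 (1.09, SE 0.33, adjusted p = 0.0465) and Ccdc39 (0.58, SE 0.12, adjusted p = 0.0124) were all higher in Nicol-/- than in Nicol+/- by limma, where 8.95% of all genes were higher. None of the 3 passed the test in Ros1-/- against Nicol+/-, or in Ros1-/- against Nicol-/-. With a replicate block within Nicol-/- and Nicol+/-, Tekt1 and Ccdc39 did not pass (adjusted p = 0.0804 and 0.0762), and the calls of Tekt1 and Foxj1 were lost in 13 and 4 of 20 alternatives, among them those without Nicol+/- library 1 or 3. The part of ciliated cells in the Crabp1 level was not tested.

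**Figure D2:**
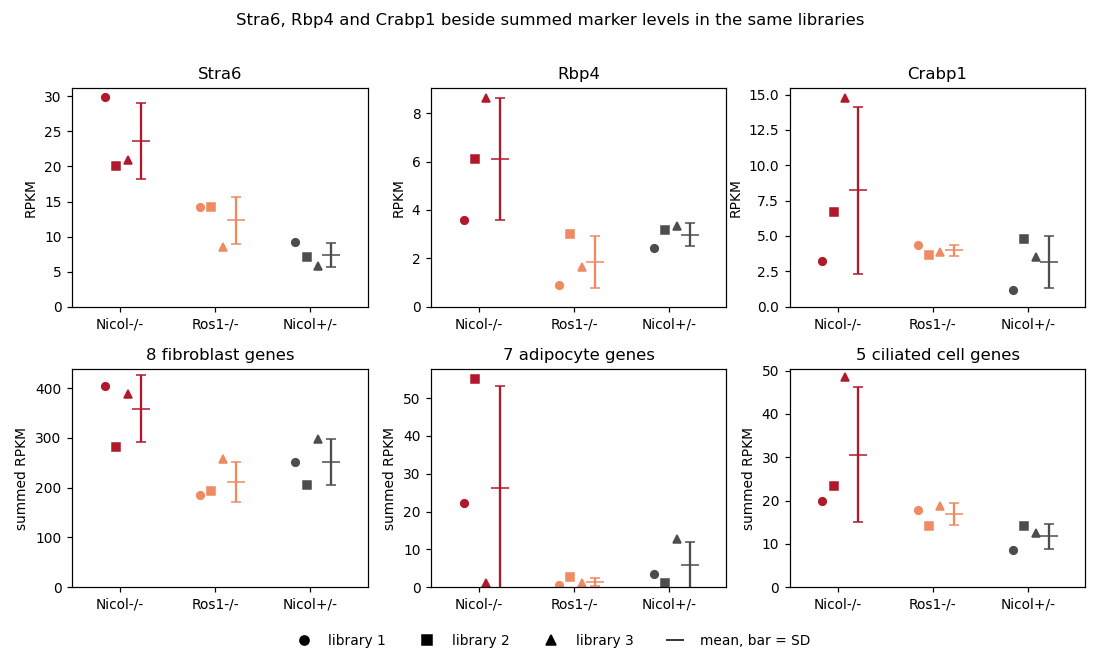
RPKM of Stra6, Rbp4 and Crabp1 in each library (top) and summed RPKM of 8 fibroblast, 7 adipocyte and 5 ciliated cell genes in the same libraries (bottom); symbols are libraries, and the dash and bar are the mean and SD (n = 3), cut at 0. Nicol-/- library 3 is highest both in Crabp1 (14.8 RPKM) and in the ciliated cell sum (48.4 RPKM), while its adipocyte sum is 1.12 RPKM. The ciliated cell sum includes Foxj1, the gene with the profile nearest to Crabp1.

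Marker genes of other cell types also varied between the libraries, and within some lists they went in both directions. The sum of 8 fibroblast genes was 281 to 405 RPKM in Nicol-/- libraries, 185 to 258 RPKM in Ros1-/- libraries and 206 to 298 RPKM in Nicol+/- libraries. That of 6 germ cell and sperm genes was 236 to 615 RPKM in Nicol-/- libraries, 279 to 705 RPKM in Ros1-/- libraries and 102 to 145 RPKM in Nicol+/- libraries. Of these 6, 4 were higher in Nicol-/- and 5 in Ros1-/- by limma, where 8.95% and 9.52% of all genes were higher. Of the fibroblast genes, Dcn rose and Pdgfra fell in Nicol-/- against Nicol+/- (log2 differences 0.71 and -0.87, adjusted p = 0.0163 and 0.00151 by limma), and the other 6 did not pass the test, although Col1a1, Col1a2 and Lum passed with a replicate block within Nicol-/- and Nicol+/- (adjusted p = 0.0433, 0.0274 and 0.046 by limma). The 6 smooth muscle genes summed to 724 to 762 RPKM in Nicol-/- libraries, 410 to 440 RPKM in Ros1-/- libraries and 1536 to 1699 RPKM in Nicol+/- libraries, a sum that rests largely on Actg2, an enteric smooth muscle actin gene. Actg2 had 44.3 to 46.3 RPKM in Nicol-/- libraries, 25.2 to 32.0 RPKM in Ros1-/- libraries and 1037 to 1329 RPKM in Nicol+/- libraries. Actg2 fell in both knockouts. Des, Tagln, Myh11, Cnn1 and Acta2 rose in Nicol-/-, where 8.95% of all genes were higher, and did not pass in Ros1-/-. With that block Des did not pass (adjusted p = 0.0686 by limma). The calls of Des and Myh11 were lost in 7 of 20 alternatives each. Acta2, the vascular smooth muscle actin gene, had 325 to 369 RPKM in Nicol-/- libraries, 169 to 178 RPKM in Ros1-/- libraries and 164 to 254 RPKM in Nicol+/- libraries. Of 7 endothelial genes, 3 (Kdr, Emcn and Pecam1) fell in Nicol-/- and 4 (the same and Cdh5) in Ros1-/-, against Nicol+/- by limma. Of all genes, 11.9% and 13.3% were lower in these comparisons. The call of Cdh5 was lost in 8 of 20 alternatives. The part of these cells in the level of Stra6 or any other of the 9 genes was not tested.

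Among the retinal oxidising enzymes, nearly all transcript was that of one gene in every library. Aldh1a1 (chr19:20492583-20643463) ranked between place 118 and place 239 of all 24346 genes, and it made up 97.96 to 99.06% of the summed RPKM of Aldh1a1, Aldh1a2 and Aldh1a3. Its levels were 544, 352 and 393 RPKM in Nicol-/- libraries, 461, 459 and 447 RPKM in Ros1-/- libraries and 602, 615 and 797 RPKM in Nicol+/- libraries. Every knockout library was below every Nicol+/- library, and the Ros1-/- libraries lay within the range of the Nicol-/- ones. The log2 difference was -0.66 (SE 0.17) in Nicol-/- and -0.55 (SE 0.17) in Ros1-/-, both against Nicol+/-, and 0.11 (SE 0.17) in Ros1-/- against Nicol-/-.

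Aldh1a3 and Aldh1a2, the other retinal oxidising enzymes, were low. Aldh1a3 (chr7:66390892-66427477) had 2.93, 2.50 and 2.68 RPKM in Nicol-/- libraries, 2.03, 2.03 and 3.24 RPKM in Ros1-/- libraries and 1.28, 1.47 and 2.06 RPKM in Nicol+/- libraries. Its Nicol-/- libraries were all above the Nicol+/- ones, opposite in direction to Aldh1a1, with a log2 difference of 0.52 (SE 0.16), against 0.39 (SE 0.16) in Ros1-/-, where the libraries overlapped. Aldh1a2 (chr9:71215789-71296243) had 3.78, 4.85 and 3.78 RPKM in Nicol-/- libraries, 4.16, 4.69 and 5.66 RPKM in Ros1-/- libraries and 5.63, 4.43 and 5.54 RPKM in Nicol+/- libraries, overlapping throughout. In RPKM, the mean gain of Aldh1a3 in Nicol-/- was small beside the mean loss of Aldh1a1, as the means of 2.70 against 1.60 RPKM and of 430 against 671 RPKM show.

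The Aldh1a1 coding sequence is 91.9% identical to that of Aldh1a7 (chr19:20692953-20727556), a rodent relative that lies 49489 bases further along the chromosome on the other strand, but the genes share no word of read length, so counted reads could be told apart where they matched exactly. Aldh1a7 had 195, 66.4 and 154 RPKM in Nicol-/- libraries, 95.4, 82.1 and 116 RPKM in Ros1-/- libraries and 160, 203 and 306 RPKM in Nicol+/- libraries. Only the Ros1-/- libraries were all below the Nicol+/- ones. Aldh1a7, which is not one of the 9 genes and was tested, did not pass in Nicol-/- (log2 difference -0.77, SE 0.37, adjusted p = 0.172 by limma) or in Ros1-/- (-1.15, SE 0.37, adjusted p = 0.0539). In Ros1-/- the call depended on the fit: the adjusted p ran from 0.00638 to 0.178 over the alternatives and passed in 5 of the 20, among them those without Nicol-/- library 1 (0.042) or 2 (0.0108), which enter only through the shared spread. Aldh1a1 was 2.56 to 5.30 times Aldh1a7 in Nicol-/- libraries, 3.87 to 5.59 times in Ros1-/- libraries and 2.604 to 3.75 times in Nicol+/- libraries.

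**Figure D3:**
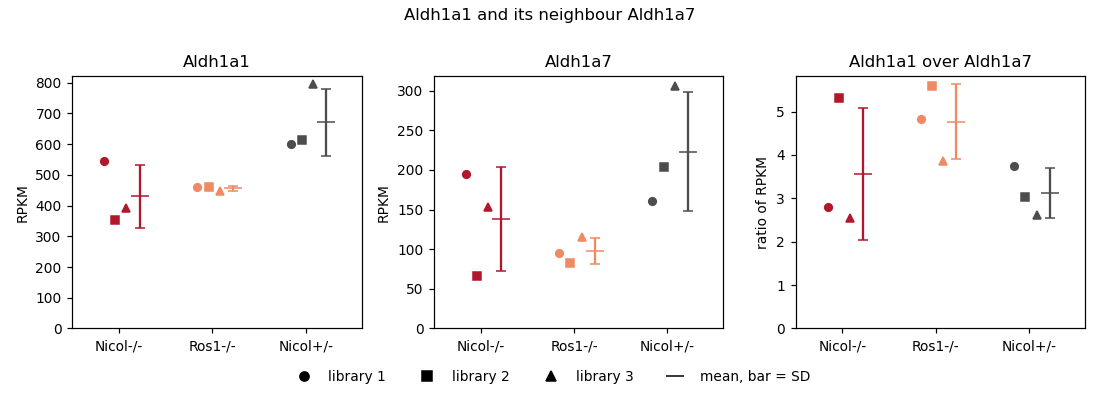
RPKM of Aldh1a1 (left) and of its neighbour Aldh1a7 (middle), and the ratio of the 2 levels (right), in each library; symbols are libraries, and the dash and bar are the mean and SD (n = 3). All 6 knockout libraries are below the Nicol+/- libraries for Aldh1a1, and all 3 Ros1-/- ratios (3.87 to 5.59) are above the Nicol+/- ratios (2.604 to 3.75).

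The genes of retinoic acid breakdown and reception had overlapping libraries in all groups. Cyp26b1 (chr6:84571414-84593908) had 2.22, 2.21 and 1.91 RPKM in Nicol-/- libraries, 1.58, 1.65 and 2.59 RPKM in Ros1-/- libraries and 3.95, 1.67 and 2.49 RPKM in Nicol+/- libraries. Nicol+/- libraries alone spanned the range of both knockouts except for 1.58 and 1.65 RPKM in Ros1-/-, and the log2 differences were -0.20 and -0.30 (SE 0.22) in Nicol-/- and Ros1-/-. Rarb (chr14:16430839-17082331), itself a target of retinoic acid through the repeat printed above, had 0.825, 1.06 and 0.984 RPKM in Nicol-/- libraries, 0.737, 0.582 and 1.03 RPKM in Ros1-/- libraries and 1.22, 0.841 and 0.849 RPKM in Nicol+/- libraries. The log2 differences of Rarb were -0.01 and -0.15 (SE 0.14) against Nicol+/-. Of the Rarb words of read length, 40.9% also lie, on the other strand, in transcripts of Top2b or Gm48162, and no source used here says whether counting used the strand, so the Rarb values are uncertain.

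Over the 9 genes, 8 passed the filter. In Nicol-/- against Nicol+/-, 1 gene passed the threshold as lower (Aldh1a1) and 1 as higher (Stra6), where 11.9% of all 13647 genes tested were lower and 8.95% higher. For 4 of the 8 genes no Nicol-/- library fell within the Nicol+/- range or the reverse, against 37.6% of all genes, and the median log2 difference was 0.26 against 0.00 over all genes. In Ros1-/- against Nicol+/-, Aldh1a1 passed as lower and none as higher, where 13.3% and 9.52% of all genes did. Here 1 of the 8 genes had no overlap, against 46.3% of all genes, and the median was -0.12 against 0.01. In Ros1-/- against Nicol-/-, none of the 8 passed in either direction, where 1.15% of all genes were lower and 0.403% higher (157 and 55 genes, but 5 and 4 without Ros1-/- library 1). Stra6 and Rbp4 were the 2 genes without overlap there, both lower in Ros1-/-, against 23.6% of all genes, and the median was -0.13 against 0.01. Since the genes were selected with these values known, nothing is read from their counts.

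These counts depend on single libraries. With a replicate block within Nicol-/- and Nicol+/-, whose equally numbered libraries deviated together, 3 genes were higher (Rbp4, Crabp1 and Stra6) and 0 lower. Over all 13647 genes, that block gave 749 higher and 981 lower. The Aldh1a1 call was lost without Nicol+/- library 3 or Nicol-/- library 2 or 3 in the Nicol comparison, and without any 1 of the 6 libraries compared in the Ros1 comparison. Over the 20 alternatives the log2 difference against Nicol+/- ran from 1.38 to 1.71 for Stra6 in Nicol-/-, from -0.84 to -0.52 for Aldh1a1 in Nicol-/- and from -0.62 to -0.42 for Aldh1a1 in Ros1-/-, and Stra6 passed in Ros1-/- when Ros1-/- library 3 was left out. These ranges describe the fits, and nothing is read from them about the genes, which were chosen with the values known.

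In Nicol+/- IS-caput the order of levels was Aldh1a1, Stra6, Aldh1a2, Crabp1, Rbp4, Cyp26b1, Aldh1a3, Rarb and Crabp2, from 671 to 0.320 RPKM. Neighbours from Aldh1a2 to Aldh1a3 in this order overlapped in their libraries. Aldh1a1 and Stra6 were first and second in all 3 groups, whereas Rbp4 held place 4 in Nicol-/- (6.10 RPKM) and place 7 in Ros1-/- (1.86 RPKM). The range of Rbp4 overlapped those of its neighbours in both orders, Crabp1 and Aldh1a2 in Nicol-/- and Cyp26b1 and Rarb in Ros1-/-.

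To set the 9 genes in their pathway, 61 other genes of retinoid metabolism and response were examined, of which 44 passed the filter. These were tested, with p-values adjusted over all 13647 genes. The lists too were chosen with earlier results of these data known, so the p-values are not independent of that choice. In Nicol-/- against Nicol+/-, 4 fell, among them Lcn8, Hoxb1 and Ppard, where 11.9% of all genes tested were lower. Another 7 rose (Nr2f2, Meis1, Adh1, Nr2f1, Rarres1, Rdh16 and Rbp2), where 8.95% of all genes were higher. The median log2 difference was 0.01 against 0.00 over all genes. In Ros1-/- against Nicol+/-, 8 fell, among them Lcn8, Hoxb1, Ppard, Rdh12, Ncoa1, Rdh11 and Tgm2, where 13.3% of all genes were lower. Another 3 rose (Rara, Rarres1 and Rbp2), where 9.52% of all genes were higher. The median was -0.01 against 0.01. None of the 44 passed the limma test in Ros1-/- against Nicol-/-, where 1.15% of all genes were lower and 0.403% higher. Before adjustment, 7 lower and 2 higher genes reached 0.05.

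**Figure D4:**
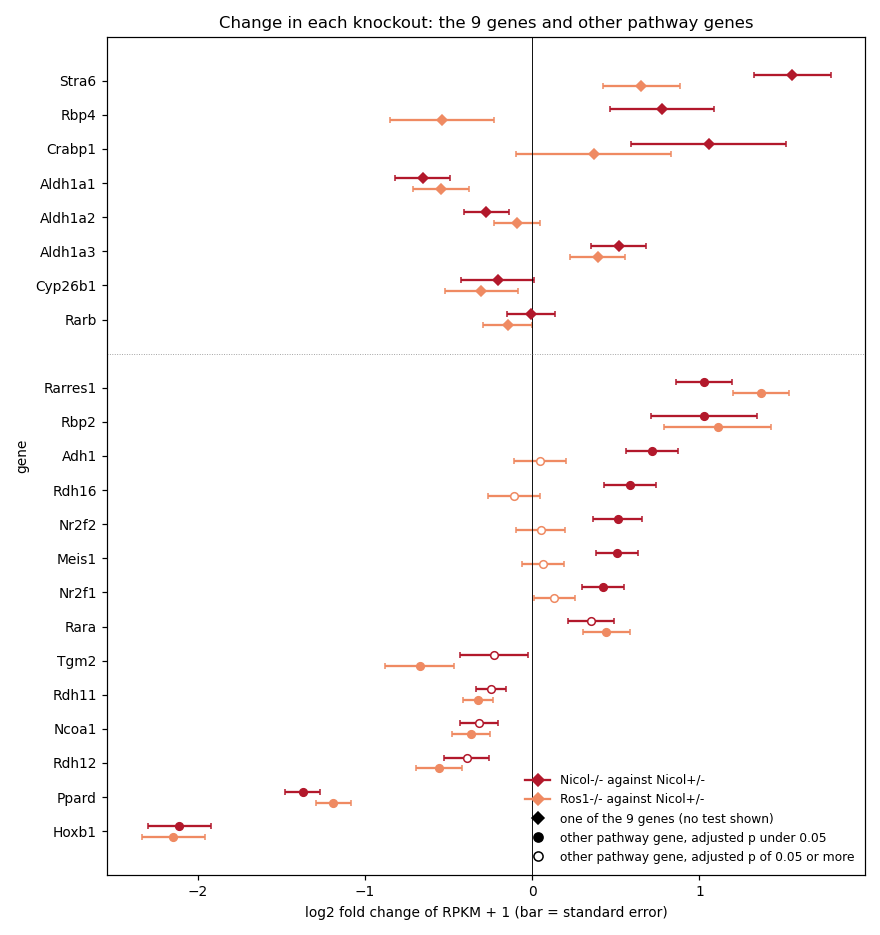
Log2 fold change of RPKM + 1 against Nicol+/- in Nicol-/- (upper of each pair) and in Ros1-/- (lower). Bars are standard errors, and diamonds are the 8 of the 9 genes that passed the filter (not Crabp2). Circles are other pathway genes named in the text that were past the threshold in at least 1 knockout, filled where they passed. Lcn8, with changes near -11, is left out. Stra6 stands at 1.56 in Nicol-/- and Hoxb1 below -2 in both knockouts.

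Among proteins that carry retinoids, Rbp2, a cellular retinol binding protein, had 4.87, 3.34 and 9.68 RPKM in Nicol-/- libraries, 5.93, 5.86 and 5.79 RPKM in Ros1-/- libraries and 1.27, 3.33 and 2.27 RPKM in Nicol+/- libraries. Rbp2 rose in Nicol-/- (log2 difference 1.03, SE 0.32, adjusted p = 0.0487 by limma) and in Ros1-/- (1.11, SE 0.32, adjusted p = 0.0351). With a replicate block within Nicol-/- and Nicol+/- the call in Nicol-/- was lost (adjusted p = 0.0862). Scarb1, a receptor for lipoproteins and carotenoids, differed by -0.18 and -0.23 in Nicol-/- and Ros1-/- (adjusted p = 0.353 and 0.228). Lcn8, an epididymal lipocalin, averaged 5.83 RPKM in Nicol-/- and 4.48 RPKM in Ros1-/-, against 13760 RPKM in Nicol+/-, the largest change of the pathway genes (log2 differences -11.06 and -11.28, adjusted p = 1.1e-07 and 9.9e-08). Its neighbour Lcn5, the epididymal retinoic acid binding protein, averaged 12968 RPKM in Nicol-/- and 17392 RPKM in Ros1-/-, against 7744 RPKM in Nicol+/-, and did not pass (adjusted p = 0.221 and 0.0792 by limma). The Nicol+/- mean of Lcn5 depends on library 3, since the Nicol+/- libraries had 10498, 10201 and 2533 RPKM, and the log2 difference in Nicol-/- ran from 0.27 to 1.30 over the alternatives.

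Of 16 genes that interconvert retinol and retinal, 11 passed the filter. Adh1, an alcohol dehydrogenase that oxidises retinol, had 118, 96.5 and 136 RPKM in Nicol-/- libraries, 69.7, 63.1 and 85.8 RPKM in Ros1-/- libraries and 70.8, 61.1 and 79.3 RPKM in Nicol+/- libraries. All 3 Nicol-/- libraries were above all others, and Adh1 rose in Nicol-/- (0.72, SE 0.16, adjusted p = 0.0129 by limma) with a value of 0.05 in Ros1-/- (adjusted p = 0.858). Whether the 2 knockouts differ was tested directly, and Adh1 did not pass (-0.67 in Ros1-/- against Nicol-/-, adjusted p = 0.068). Rdh16 rose in Nicol-/- by 0.58 (adjusted p = 0.0298, and 0.0768 with a replicate block within Nicol-/- and Nicol+/-), and its difference between the knockouts did not pass (adjusted p = 0.0637). The retinol dehydrogenase genes Rdh11 and Rdh12 fell in Ros1-/- by 0.33 and 0.56 on the log2 scale (adjusted p = 0.0299 and 0.0189), with values of -0.24 and -0.39 in Nicol-/- (adjusted p = 0.0821 and 0.071). Cyp1b1, a cytochrome P450 gene, did not pass in either knockout (0.59 and 0.33, adjusted p = 0.0609 and 0.245), but it passed in Nicol-/- with the same block (adjusted p = 0.0279 by limma). Dhrs4 stayed between 40.5 and 46.7 RPKM in all 9 libraries.

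Among receptors and delivery proteins, Ppard, a nuclear receptor for fatty acids that retinoic acid can also reach through Fabp5, had 8.08, 9.70 and 8.71 RPKM in Nicol-/- libraries, 10.1, 10.7 and 9.61 RPKM in Ros1-/- libraries and 22.2, 23.2 and 28.1 RPKM in Nicol+/- libraries. Ppard fell in both knockouts (-1.37 and -1.19, SE 0.10, adjusted p = 3.7e-05 and 7.0e-05 by limma). Rara, a retinoic acid receptor, rose in Ros1-/- by 0.44 (adjusted p = 0.048), with a value of 0.35 in Nicol-/- (adjusted p = 0.103). Rarg and Rxrb did not pass in either knockout, with log2 differences between -0.10 and 0.16. The receptor coactivator gene Ncoa1 fell in Ros1-/- (-0.37, SE 0.11, adjusted p = 0.0456 by limma), with a value of -0.32 in Nicol-/- (adjusted p = 0.0761), and the corepressor gene Ncor1 did not pass (-0.15 and -0.19, adjusted p = 0.278 and 0.17).

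Genes known to respond to retinoic acid in other tissues moved in both directions. Of 11 listed, 9 passed the filter; in Nicol-/- 4 rose and 1 fell, where 8.95% of all genes were higher and 11.9% lower, and in Ros1-/- 1 rose and 2 fell, where 9.52% were higher and 13.3% lower. Rarres1, named for its induction by a retinoid, had 33.4, 21.4 and 23.3 RPKM in Nicol-/- libraries, 34.3, 28.6 and 35.3 RPKM in Ros1-/- libraries and 12.5, 13.5 and 10.3 RPKM in Nicol+/- libraries. Rarres1 rose in Nicol-/- (1.03, SE 0.17, adjusted p = 0.00331 by limma) and in Ros1-/- (1.37, SE 0.17, adjusted p = 0.000536). Hoxb1, a homeobox gene with a retinoic acid response element, had 0, 0 and 0.335 RPKM in Nicol-/- libraries, 0.0694, 0.105 and 0.049 RPKM in Ros1-/- libraries and 2.69, 4.68 and 4.11 RPKM in Nicol+/- libraries. Hoxb1 fell in both (-2.11 and -2.14, SE 0.19, adjusted p = 0.0001 and 7.1e-05). The orphan receptor genes Nr2f1 and Nr2f2 and the homeobox gene Meis1 rose in Nicol-/- by 0.42, 0.51 and 0.51 (adjusted p = 0.0401, 0.0379 and 0.0221), with values of 0.13, 0.05 and 0.07 in Ros1-/- (adjusted p from 0.473 to 0.832). Tgm2, a transglutaminase gene, fell in Ros1-/- by 0.67 (adjusted p = 0.043), with a value of -0.23 in Nicol-/- (adjusted p = 0.459). Rarres2 did not pass in either knockout (0.58 and 0.31, adjusted p = 0.0521 and 0.262), but it passed in Nicol-/- with a replicate block within Nicol-/- and Nicol+/- (adjusted p = 0.0429 by limma), where Nr2f1 did not (0.144). Both knockouts were set against the same Nicol+/- libraries, so their changes are not independent of each other.

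Several of these calls were near the threshold. Without 1 library or without the filter, the count of pathway genes higher in Nicol-/- was between 2 and 7, and Adh1 and Rarres1 were called higher in all 9 fits that left out a library. Of the 20 alternatives, Rbp2 lost its call in Nicol-/- in 15, Nr2f1 in 12, Nr2f2 and Rdh16 in 9 each, Meis1 in 5 and Adh1 in 1 (no filter, adjusted p = 0.0525 by limma), with adjusted p up to 0.149. In Ros1-/-, Ncoa1 lost its call in 11, Rara in 10, Rdh11 and Tgm2 in 8 each, Rbp2 in 6 and Rdh12 in 3, with adjusted p up to 0.148. Lcn8, Hoxb1 and Ppard as lower and Rarres1 as higher kept their calls in both knockouts in all 20 alternatives.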

How the data were processed

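Libraries were made from total RNA with a stranded mRNA kit and sequenced as single reads. Per the labels and the study's methods, the authors mapped reads to mm10 with TopHat2 2.1.1 and computed the deposited RPKM (named FPKM in the header) with Cufflinks 2.2.1. A second set of deposited columns, here treated as signal, holds the authors' normalised counts; 98.2 to 98.5% of these values were whole multiples (within 0.02) of a step per library, from which depth was estimated. RPKM had an added 1 and was log2 transformed, the 13647 genes that reached 1 RPKM in 3 or more of the 9 libraries were kept, and 3 group means were fitted with limma 3.58.1 (R 4.3.3, mean-variance trend), with Benjamini-Hochberg adjustment over all genes tested and a threshold of 0.05. The 9 genes and the lists were chosen with earlier results of these data known. Named genes were the 9 genes, in each list the 2 most abundant and every gene called against Nicol+/-, the targeted genes, Aldh1a7, and, for a member whose group means lay at least 1 apart on the log2 scale, the 3 nearest profiles. Marker genes were named beside results they move with, and some genes that the rule names are not reported here. Equally numbered Nicol-/- and Nicol+/- libraries deviated together (correlation 0.103 to 0.243, against -0.198 to 0.0598 otherwise), which the labels do not explain. The fit was tested on simulated log2 values with known changes. Python 3.11.15 and matplotlib 3.10.9 read the sequences and drew the plots.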

Additional observations from a re-analysis of the deposited data

Results flagged for a closer look

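The Ros1-/- and Nicol-/- libraries differed beyond the threshold, by limma, in 7 of the list genes named here or in the marker lists. The targeted genes did so: Gm1673 by 4.22 (adjusted p = 2.3e-06), a value that depends on the added 1 since Gm1673 was listed at 0 in all 3 Nicol-/- libraries, and Ros1 by -1.14 (adjusted p = 0.00989). Among marker genes, the fibroblast gene Pdgfra differed by -0.65 (adjusted p = 0.0374), and the smooth muscle genes Acta2, Cnn1, Tagln and Actg2 by -0.96, -0.59, -0.64 and -0.69 (adjusted p = 0.02, 0.0312, 0.026 and 0.0283), all lower in Ros1-/-. The calls of these 5 marker genes were lost in 6 to 10 of 20 alternatives, among them, for each of the 5, leaving out Nicol-/- library 1 or Ros1-/- library 1 or 2, and that of Ros1 in 3, 2 of them without Ros1-/- library 1 or 2. None of the 44 other pathway genes tested passed in that comparison. Nothing is read from the fit of the 9 retinoid genes, which were chosen with the values known.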

How the results depend on the processing

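Of 20 alternatives in pseudocount, filter, scaling, spread model, pairing and single libraries, none turned round a called direction of the 9 genes, the named pathway genes, the targeted genes or the ciliated, fibroblast, smooth muscle, endothelial and germ cell markers (the last 2 groups of genes were added after the data had been seen). In Nicol-/- against Nicol+/-, the 9 genes gave 0 lower without a filter, with only the 6 libraries compared and with a replicate block within the groups, and 2 higher without a mean-variance trend or 3 with either replicate block; leaving out single libraries gave 0 to 1 lower and 1 to 3 higher. The other pathway genes gave 2 higher without a filter or with only the 6 libraries, and 3 to 7 without single libraries. In Ros1-/- against Nicol+/-, the 9 genes gave 0 lower without a filter or with the replicate block over 9 libraries, 1 higher (Stra6) with either replicate block, and 0 to 1 in each direction without single libraries, while pathway genes gave 4 lower and 1 higher without a filter, and 4 to 9 lower and 1 to 4 higher without single libraries. In Ros1-/- against Nicol-/-, the replicate block over 9 libraries gave 2 of the 9 genes lower (Rbp4 and Stra6) and 1 pathway gene lower (Adh1). Over all 13647 genes, the block over 9 libraries gave 187 lower and 63 higher there. Dropping the mean-variance trend gave 1 pathway gene lower (Rdh16), and quantile normalization gave 1 higher (Rbp7). The causes were not tested. Equally numbered Ros1-/- libraries did not clearly deviate together with the others (-0.0911 to 0.129, against -0.293 to 0.242 for unequal numbers). With 3 libraries a group, this cannot show that they share only a number. Over all genes, quantile normalization called 1443 lower and 1393 higher in Nicol-/- against Nicol+/-, where 1628 and 1221 were called in the fit as reported, and 1546 and 1616 in Ros1-/-, where 1810 and 1299 were. Leaving out single libraries gave 954 to 1534 lower and 518 to 1070 higher in Nicol-/- (lowest without Nicol+/- library 3), 1099 to 2150 and 554 to 1743 in Ros1-/- (lowest without Ros1-/- library 1, highest without Nicol-/- library 3), and 5 to 180 and 4 to 112 in Ros1-/- against Nicol-/-, where 157 and 55 were called (5 and 4 without Ros1-/- library 1, 9 and 7 without Ros1-/- library 2, 19 and 12 without Nicol-/- library 1). The 6 libraries of Nicol-/- and Nicol+/- alone gave 1083 and 649. In Nicol-/- against Nicol+/-, the block within groups gave 981 and 749, and the block over 9 libraries 1486 and 1305. In Ros1-/- against Nicol+/-, these blocks gave 1715 and 1412, and 1699 and 1365. Between the knockouts the block within groups gave 7 and 8. The planned count models were not run, because the deposited normalised counts could not be turned into whole reads for every value. Depth limits Crabp2, Rarb, Crabp1, Rbp4 and Aldh1a3, with at most 139 estimated reads a library on each.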
